A study of Mus musculus with 6 samples.

Results

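The guanylate-binding proteins (GBPs) and immunity-related GTPases (IRGs) are 2 families of interferon-inducible GTPases, and 10 of their mouse genes, 4 GBPs (Gbp2, Gbp3, Gbp6 and Gbp7) and 6 IRGs (Irgm1, Irgm2, Igtp, Iigp1, Tgtp1 and Tgtp2), were examined in small intestinal organoids treated with MMK-1. The genes were taken from a list of names, which was drawn up with earlier results of these data known, so their direction is not independent evidence. Of the 10, 8 had a value among the 21397 genes of the deposited table, 7 were above 0 in any library, and the levels of Iigp1 and Tgtp1 were not analysed here. All organoids came from Fpr2f/f mice, which carry floxed Fpr2 alleles; no Cre transgene is named for them. The organoids received either MMK-1, a peptide agonist of the formyl peptide receptor FPR2, or its vehicle, 0.1% DMSO, and were collected on day 5. Each group had 3 libraries (Control and MMK-1, replicates 1 to 3). The dose of MMK-1 is 1 μM in the protocol text and 1 mM in the treatment label. The study states that a sample holds organoids of 3 mice, and the labels do not say whether the samples are separate cultures, so p-values here measure only the spread between these libraries.

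GBPs and IRGs are large cytosolic GTPases of cell-autonomous immunity. Interferon-γ acts through its receptor and the kinases JAK1 and JAK2 on genes with gamma-activated sequences (GAS), while type I and type III interferons act through a complex that holds STAT2 and IRF9 and binds interferon-stimulated response elements (ISRE). The GTPases then coat vacuoles that hold pathogens, and GBPs also help to open bacterial membranes and to start inflammasome signalling. The IRGM proteins (Irgm1, Irgm2 and Igtp, the last also called Irgm3) are the regulators of the family: they sit on membranes of the host and keep the effector IRGs, such as Iigp1, Tgtp1 and Tgtp2, inactive there. In the intestinal epithelium these genes are known as a readout of interferon signalling.

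The 4 IRG genes with a value lie on chromosome 11 in the GENCODE annotation of GRCm38. Irgm1 spans positions 48861968 to 48871683 on the minus strand and Tgtp2 positions 49057194 to 49064206 on the minus strand. Igtp (58199556 to 58207591) lies within the annotated extent of Irgm2 (58199618 to 58222782) except for its first bases, and both are on the plus strand. Gbp7 (142530342 to 142550149), Gbp3 (142560026 to 142573209) and Gbp2 (142620602 to 142638008) follow each other on the plus strand of chromosome 3, and Gbp6 (105270702 to 105293698, minus strand) is on chromosome 5. All 8 genes with a value are annotated as protein-coding.

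The sequences upstream of 6 of these genes are shown because the 2 interferon motifs stand in them in different arrangements. They are the last 120 bases before the RefSeq start on GRCm38.p6, 5′ to 3′ on the strand of the gene. Capitals mark matches to an ISRE-like motif (GAAA, any 2 bases and GAAA again, on either strand) or a GAS-like motif (TTC, any 3 bases and GAA, which reads the same on both strands).
Igtp, chr11:58199436-58199555, plus strand: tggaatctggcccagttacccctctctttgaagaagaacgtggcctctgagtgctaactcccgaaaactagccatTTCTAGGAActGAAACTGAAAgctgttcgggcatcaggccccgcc
Irgm2, chr11:58214857-58214976, plus strand: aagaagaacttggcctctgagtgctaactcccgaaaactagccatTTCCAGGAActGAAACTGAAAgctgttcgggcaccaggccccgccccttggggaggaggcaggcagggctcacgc
Tgtp2, chr11:49064213-49064332, minus strand: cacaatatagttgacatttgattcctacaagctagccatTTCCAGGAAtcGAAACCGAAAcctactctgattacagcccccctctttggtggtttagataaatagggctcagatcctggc
Irgm1, chr11:48871421-48871540, minus strand: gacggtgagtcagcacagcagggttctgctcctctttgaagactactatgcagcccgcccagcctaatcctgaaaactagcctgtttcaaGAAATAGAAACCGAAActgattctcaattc
Gbp7, chr3:142530216-142530335, plus strand: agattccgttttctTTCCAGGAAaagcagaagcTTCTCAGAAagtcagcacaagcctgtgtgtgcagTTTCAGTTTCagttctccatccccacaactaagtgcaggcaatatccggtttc
Gbp2, chr3:142620543-142620662, plus strand: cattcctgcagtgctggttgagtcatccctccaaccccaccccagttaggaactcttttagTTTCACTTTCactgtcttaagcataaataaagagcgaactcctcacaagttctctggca

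A window was used for 8 of the 10 genes (Gbp6 and Iigp1 were the others), and in the 250 bases before the start all 8 held an ISRE-like match, while 5 also held a GAS-like match. For comparison, 2.98% of 32851 windows of the same length before RefSeq starts held an ISRE-like match, 7.02% a GAS-like match and 0.332% both. In Igtp, Irgm2, Tgtp1 and Tgtp2 the GAS-like match came first and the ISRE-like match followed after 2 bases. Igtp and Irgm2 were 92.1% identical over 214 aligned bases of this region. The window of Irgm1 held 2 ISRE-like matches that overlap each other, from 30 to 15 bases before the start, and no match to the GAS-like letters. Gbp7 held 2 GAS-like matches and 1 ISRE-like match, Gbp2 a single ISRE-like match, and Gbp3 held 2 overlapping ISRE-like matches before 1 of its 2 RefSeq starts and none before the other. The windows of Irgm1, Irgm2, Tgtp1 and the second start of Gbp3 lay inside the GENCODE extent of the gene, as did the match of Gbp2. Which matches are found thus depends on the start chosen. These matches describe letters in a window and were not tested for binding.

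**Figure D1:**
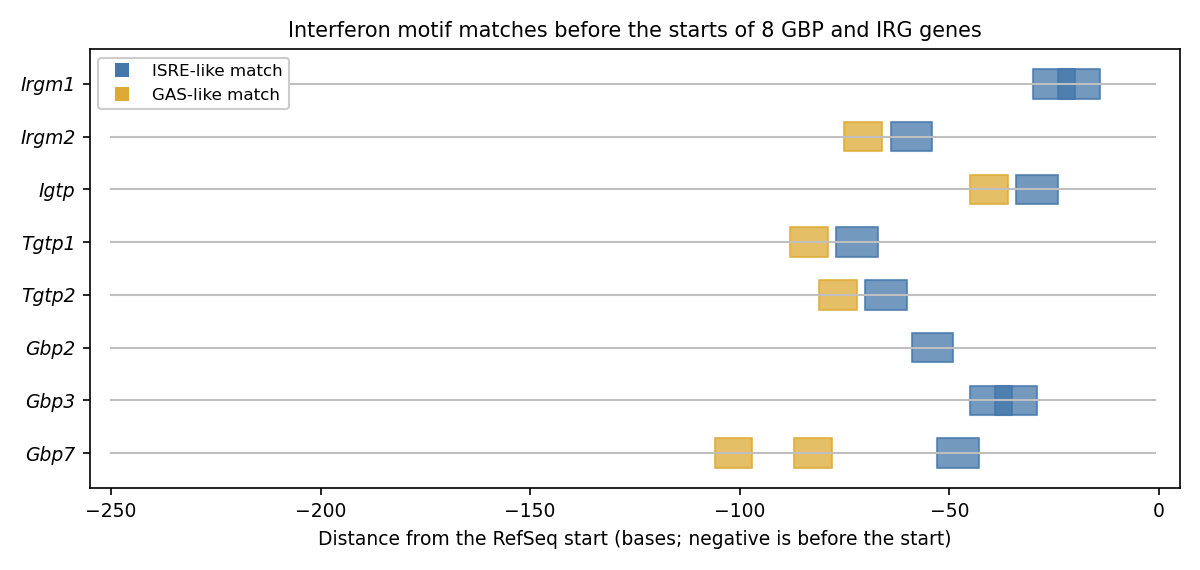
Positions of the ISRE-like (blue) and GAS-like (yellow) matches in the 250 bases before the RefSeq start of 8 genes, with the distance from the start in bases on the x axis and 1 line per gene; for Gbp3 the start with matches is drawn. The 4 IRG genes below Irgm1 share a GAS-like match followed by an ISRE-like match, whereas Irgm1, Gbp2 and Gbp3 show ISRE-like matches alone.

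The libraries held between 35512739 and 37537463 fragments. Values were deposited as FPKM (fragments scaled by the length of the gene and the total of the library), from which the whole number of fragments behind each value was recovered. Control and MMK-1 libraries separated on the first principal component (92.4% of the variance), and MMK-1 replicate 3 stood apart from the other MMK-1 libraries on the second (4.48%). The test was limma-trend on log2(FPKM + 1). It covered the 10551 genes whose FPKM averaged at least 1 over the libraries, which admitted Irgm1 alone among the 8 genes. The lower genes are given by their fragments in each library, an exact 95% interval of the ratio of the summed fragments, which covers counting error only, and 2 further fits, limma-trend over all 20676 genes above 0 with a pseudocount of 0.1 and limma-voom on fragments over 15917 genes. Log2 fold changes from FPKM with a pseudocount understate the change of genes with few fragments.

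MMK-1 lowered the levels of the 3 IRGM regulators and of Gbp7, and no member was called higher. The decrease was 1.69-fold for Irgm1, 3.99-fold for Irgm2, 8.31-fold for Igtp and 12.2-fold for Gbp7, from the fragments summed over 3 libraries per group. The FPKM of the 8 genes summed to between 11.2 and 12.1 in Control and between 5.38 and 6.04 with MMK-1. Irgm1 made up from 75.4% to 79.4% of this sum in Control libraries and from 91.8% to 93.5% in MMK-1 libraries. In a bulk sample, fewer cells that express a gene and less RNA per cell cannot be told apart.

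Irgm1, a regulator of autophagy and of the effector IRGs, was the most abundant member. It had 8.90, 9.02 and 9.31 FPKM in Control and 5.60, 4.95 and 5.54 FPKM with MMK-1 (means 9.08 ± 0.213 and 5.37 ± 0.358, SD, n = 3). Every Control library was above every MMK-1 library, with 921, 936 and 962 fragments against 550, 492 and 569. In Control its mean level stood at the 75.4th percentile of all genes, and with MMK-1 at the 66.0th. The log2 fold change of Irgm1 in the limma-trend test was -0.66 (SE 0.0546, Benjamini-Hochberg adjusted p = 7.9e-06). Irgm1 thus was the 1 member called lower by the adjusted p (threshold 0.05), where 24.7% of all genes tested were called lower by the same rule. At a fold change of at least 2 no member (0 of 1 tested) was called lower in that test, beside 3.65% of all genes, since the decrease of Irgm1 was under 2-fold; at an unadjusted p of at most 0.05 the count was 1.

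The 5 genes of 10550 whose profile over the 6 libraries lay nearest to that of Irgm1, by the root mean square distance of log2(FPKM + 1) from the Control mean, were Arhgef2 (0.0232), Lamtor2 (0.0247), Slc22a5 (0.0297), Acox2 (0.0330) and Lrrc57 (0.0377). The other members could not appear, since the genes compared had a mean FPKM of at least 1.

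Igtp, which anchors at the endoplasmic reticulum and lipid droplets, showed a larger decrease. It had 105, 126 and 139 fragments in Control and 7, 16 and 20 with MMK-1, or 1.39, 1.66 and 1.84 FPKM against 0.0974, 0.220 and 0.266 FPKM. The lowest Control library was above the highest MMK-1 library by a wide margin, and MMK-1 replicate 1 was the lowest. The level was 8.31-fold lower with MMK-1 (95% counting interval 6.05 to 11.7). The log2 fold change was -2.59 in limma-trend with a pseudocount of 0.1 (SE 0.261, adjusted p = 3.8e-04) and -3.12 in limma-voom (SE 0.372, adjusted p = 1.7e-05).

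Irgm2, the regulator that resides mainly at the Golgi apparatus, had 99, 134 and 106 fragments in Control and 33, 24 and 25 with MMK-1. In FPKM this was 0.752, 1.02 and 0.807 against 0.264, 0.190 and 0.192, with no overlap between the groups. The level was 3.99-fold lower with MMK-1 (95% counting interval 3.13 to 5.15). Its log2 fold change was -1.60 in limma-trend with a pseudocount of 0.1 (SE 0.174, adjusted p = 5.3e-04) and -1.98 in limma-voom (SE 0.265, adjusted p = 4.4e-05). Irgm2 and Igtp overlap in the annotation, but only 16 windows of 150 bases, the read length, were shared between their transcripts (0.437% of those of Irgm2 and 0.739% of those of Igtp).

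The 3 regulators were compared by their ratios within each library, where no pair could pass a threshold of 0.05 with 3 libraries per group. The log2 ratio of Irgm1 to Igtp was 2.49 ± 0.175 in Control and 4.91 ± 0.816 with MMK-1 (SD, n = 3), and that of Irgm1 to Irgm2 was 3.41 ± 0.229 and 4.65 ± 0.229. Both ratios were higher in every MMK-1 library than in any Control library, at an exact two-sided permutation p of 0.1, the smallest that 3 against 3 libraries can give. On the log2(FPKM + 1) scale the difference of Irgm1 and Igtp was 0.47, also without overlap (exact permutation p = 0.1, adjusted p = 0.167 over 5 pairs). For Irgm1 and Irgm2 this scale gave -0.05 with overlap between the groups (exact permutation p = 0.6), so the order of these 2 genes in FPKM depended on the pseudocount. The summed fragments, which hold no pseudocount, fell 1.69-fold for Irgm1 (95% counting interval 1.59 to 1.80). Those of Irgm2 fell 3.99-fold (3.13 to 5.15). The log2 ratio of Irgm2 to Igtp was -0.93 ± 0.243 in Control and 0.25 ± 1.04 with MMK-1 (exact permutation p = 0.1). The 95% interval of this difference, -0.53 to 2.89, spans 0, whereas on the log2(FPKM + 1) scale the difference was 0.53 with an interval of 0.20 to 0.86 and no overlap. The ratio was 1.44 in MMK-1 replicate 1 and -0.21 and -0.47 in replicates 2 and 3, so the mean with MMK-1 is set largely by replicate 1.

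**Figure D2:**
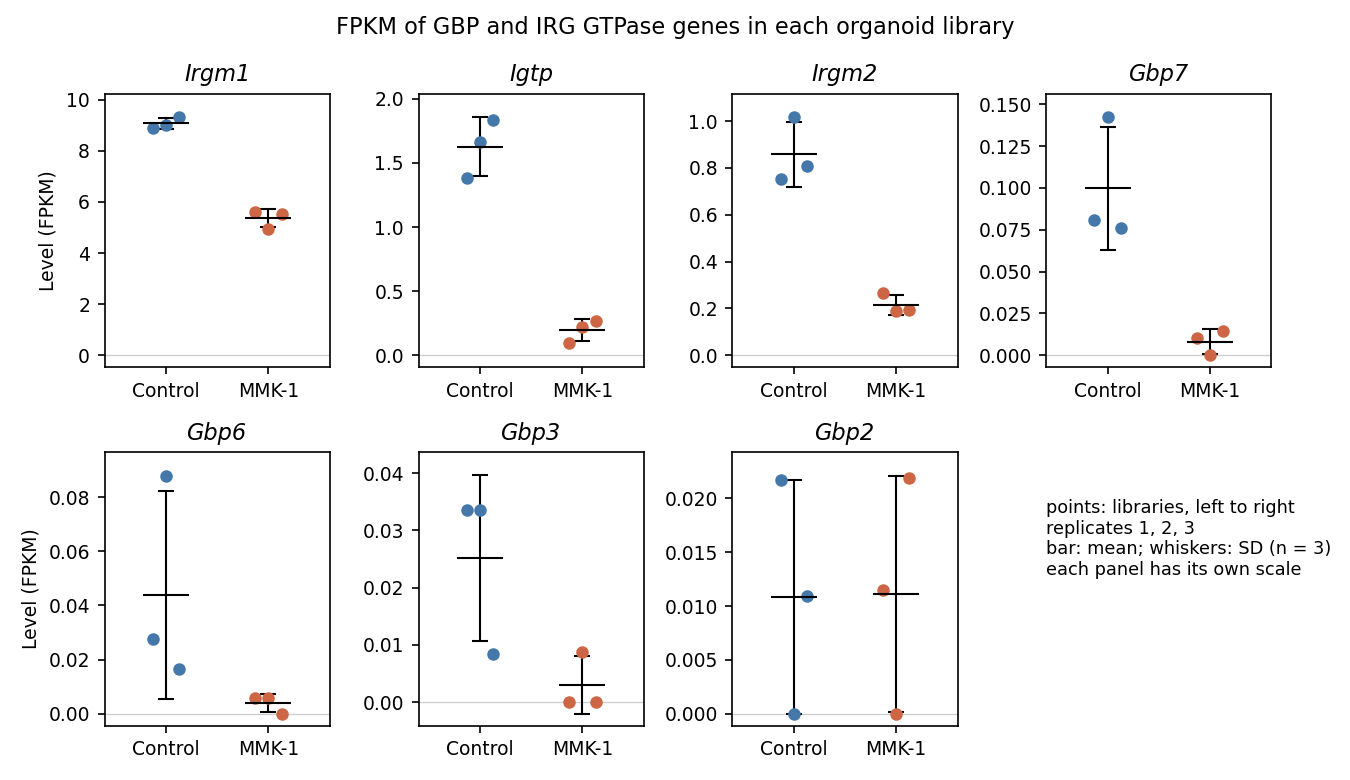
Level in FPKM (y axis, own linear scale in each panel) of the 7 members above 0 in the Control and MMK-1 libraries; points are libraries, the bar is the mean and the whiskers the SD (n = 3). Irgm1, Igtp, Irgm2, Gbp7 and Gbp6 have every MMK-1 library below every Control library, while Gbp3 and Gbp2 overlap.

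The GBP members were near the limit of detection. Over the 4 genes there were 28, 50 and 21 fragments in Control and 4, 2 and 5 with MMK-1. The groups did not overlap in this sum, and the highest value of any of these genes in a library was 0.142 FPKM, for Gbp7 in Control replicate 2.

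Gbp7, a GBP linked to oxidative defence of macrophages, carried most of these fragments, with 17, 30 and 16 in Control and 2, 0 and 3 with MMK-1. The level was 12.2-fold lower with MMK-1 (95% counting interval 4.95 to 38.8), and the groups did not overlap. The adjusted p was 0.0030 in limma-trend with a pseudocount of 0.1 (log2 fold change -0.87, SE 0.142).

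Gbp6 had 5, 16 and 3 fragments in Control and 1, 1 and 0 with MMK-1, and Control replicate 2 held most of them. The ratio was 11.6-fold lower with MMK-1 with a wide 95% counting interval, from 2.88 to 101.2. The groups did not overlap, but the fits differed: the adjusted p was 0.0956 in limma-trend with a pseudocount of 0.1 and 0.0273 in limma-voom, whose minimum of 10 fragments Gbp6 met through Control alone, so that its decrease is not called here. Of the windows of 150 bases in Gbp6 transcripts, 29.0% occur in another gene, mostly Gbp10, so its fragments are uncertain.

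Gbp3 had 4, 4 and 1 fragments in Control and 0, 1 and 0 with MMK-1, with 1 library of each group at the same count. Its adjusted p was 0.0643 in limma-trend with a pseudocount of 0.1 and 0.0720 in limma-voom, and it passed the former only when Control replicate 3 was left out (adjusted p = 0.0106). Gbp2, whose protein targets bacterial and parasite vacuoles, had 2, 0 and 1 fragments in Control and 1, 0 and 2 with MMK-1, a ratio of 1.03 with a 95% counting interval from 0.139 to 7.73. A change of Gbp2 was not detectable at this depth. Tgtp2, an effector IRG, was listed at 0 in all 6 libraries; 68.4% of the windows of 150 bases in its transcripts are shared with other genes, mostly Tgtp1.

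In all, 4 of the 7 members above 0 (Irgm1, Irgm2, Igtp and Gbp7) were called lower by the adjusted p in limma-trend over every gene above 0, beside 15.3% of all genes. With a 2-fold change and an unadjusted p up to 0.05 as the rule the counts were 2 of 7, Igtp and Irgm2 (3.96% of all genes). The groups did not overlap in 5 of the 7, all lower with MMK-1, beside 18.1% of all genes above 0. Limma-voom called 5 of 6 members lower by either rule (20.5% and 7.2% of all genes), but Gbp6 and Gbp7 reached its fragment minimum through Control alone and Gbp3 only with the Control fragments, so its count is no measure of the family. Leaving out each library in turn kept Irgm1, Irgm2, Igtp and Gbp7 at adjusted p values up to 0.0152 in limma-trend over every gene above 0. No member was called higher by the adjusted p in either fit, where 28.3% and 39.0% of all genes were, and the count at an unadjusted p of at most 0.05 was 0 in both.

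**Figure D3:**
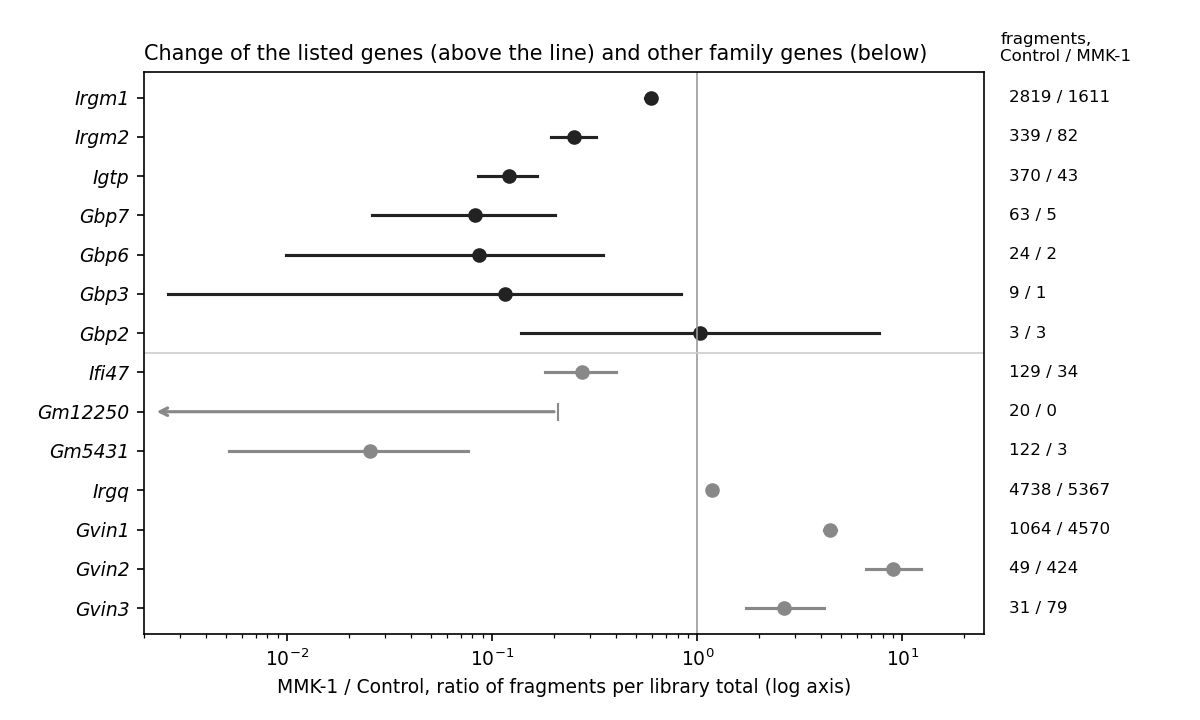
Ratio of MMK-1 to Control fragments per library total (log axis), with exact 95% counting intervals, for the 7 members above 0 (black) and other GTPase genes of these families (grey); the fragments summed over 3 libraries per group stand at the right, and an arrow marks a gene with 0 fragments with MMK-1. Igtp and Irgm2 lie further below 1 than Irgm1, the interval of Gbp2 spans 1, and the ratios of the 3 Gvin genes lie above 1, although the libraries of Gvin3 overlap between groups.

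Other genes of the families that were above 0 moved in both directions. Among the IRGs, Ifi47 (Irgd) had 51, 31 and 47 fragments in Control and 14, 16 and 4 with MMK-1, without overlap (3.67-fold lower, counting interval 2.50 to 5.52). Its adjusted p was 0.0037 in limma-voom and 0.0131 in limma-trend over every gene above 0, where it was 0.0519 without Control replicate 1 and 0.0524 without Control replicate 3. Gm12250 (Irgb10), an effector IRG that acts with GBPs on bacterial membranes and that GENCODE annotates as a processed pseudogene, had 3, 9 and 8 fragments in Control and 0 in each MMK-1 library. Against a floor of 3 fragments over the group Gm12250 was 6.44-fold lower, and its counting interval allowed a decrease as small as 4.77-fold. No p is given, since Gm12250 entered the fits through the Control libraries alone. Gm5431, a predicted gene near Irgm1 on chromosome 11 (48887422 to 48902214), had 41, 47 and 34 fragments in Control and 0, 1 and 2 with MMK-1 (39.3-fold lower, counting interval 13.1 to 193.2), nearly all of its fragments being in Control, through which it entered the fits. Of the windows of 150 bases in Gm5431 transcripts, 11.4% are shared with other genes, mostly 9930111J21Rik1.

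Irgq, a member of the family that is not induced by interferon, had between 1526 and 1649 fragments in Control and between 1699 and 1881 with MMK-1, without overlap. It was higher at a log2 fold change of 0.20 in limma-trend (adjusted p = 0.0049), but after upper-quartile scaling the log2 fold change was 0.10 (adjusted p = 0.0687). Gbp4, Gbp5, Gbp8 and Gbp9 had between 0 and 6 fragments in every library, and their groups overlapped. The very large interferon-inducible GTPases (Gvin genes) are described with the other observations.

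The genes that carry the interferon signal to the GTPases were compared next, from lists chosen with earlier results of these data known, so that their direction is not independent evidence. Ifng itself had 1 fragment, in Control replicate 3, and 0 in the other libraries, and Ifne and Ifnz, the other interferon genes with a value, were listed at 0. Of the receptor chains and kinases, limma-trend called 1 of 4 lower and 2 of 4 higher by the adjusted p (all genes 24.7% and 48.5%). Ifngr2 fell from 91.7 ± 2.36 to 73.8 ± 3.75 FPKM (log2 fold change -0.31, adjusted p = 3.3e-04). Ifngr1 went from 104.0 ± 1.92 to 113.6 ± 4.68 FPKM (adjusted p = 0.0247) and Jak1 from 15.0 ± 0.204 to 17.8 ± 0.351 FPKM (adjusted p = 8.2e-04), while the adjusted p of Jak2 was 0.393. Scaling by the upper quartile moved the median of this list from 0.09 to -0.01, and called 1 gene, Jak1, higher in place of 2 (38.8% of all genes). The log2 fold change of Ifngr1 was then 0.01 (limma-trend adjusted p = 0.761).

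Of the transcription factors of the pathway 3 of 5 tested were lower and 1 was higher (all genes 24.7% and 48.5%), and their median log2 fold change was -0.16 against 0.13 for all genes. Irf9, the DNA-binding part of the ISRE-binding complex, fell from 8.92 ± 0.0692 to 3.92 ± 0.536 FPKM (log2 fold change -1.02, SE 0.0771), and Stat2, of the same complex, fell from 13.3 ± 0.380 to 8.22 ± 0.746 FPKM (log2 fold change -0.64). Irf1 was at the threshold, going from 2.69 ± 0.20 to 2.30 ± 0.135 FPKM (adjusted p = 0.0442, and 0.0744 in limma-voom, where the call was lost). Irf2 had an adjusted p of 0.0518 in limma-trend and of 0.0222 in limma-voom. With upper-quartile scaling the limma-trend adjusted p was 0.0068 for Irf1 and 0.0042 for Irf2, both lower. Irf8 was higher, at 36.4 ± 0.729 against 31.9 ± 0.653 FPKM (adjusted p = 0.0025; upper-quartile scaling called no gene of the list higher). The genes under 1 FPKM were read in fragments. Nlrc5, a coactivator of MHC class I genes, had 31, 33 and 9 fragments in Control and 0 in each MMK-1 library, and it too entered the fits through Control alone. Batf2 had 7, 3 and 1 fragments in Control and 25, 24 and 14 with MMK-1 (limma-voom adjusted p = 0.0033). Ciita had between 0 and 3 fragments in each library.

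Of the negative regulators 3 of 4 tested were called higher (Ptpn2, Pias1 and Ptpn1, log2 fold changes 0.28, 0.26 and 0.18), beside 48.5% of all genes, and 2 of 4 after upper-quartile scaling, beside 38.8%. Socs3 had an adjusted p of 0.172, and Socs1 had between 4 and 10 fragments in Control and between 9 and 18 with MMK-1 (limma-voom adjusted p = 0.123). Usp18, an inhibitor of the type I receptor that is itself induced by interferon, had 118, 116 and 122 fragments in Control and 5, 6 and 4 with MMK-1, and fell by 4.41 on the log2 scale in limma-voom (SE 0.397, adjusted p = 1.6e-06).

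Most other interferon targets tested were lower as well. Of the other interferon-γ targets 11 of 14 tested were lower and 1 was higher (all genes 24.7% and 48.5%; median log2 fold change -0.46). Parp14, Tap1 and B2m, of which the last 2 serve MHC class I antigen presentation, had the lowest log2 fold changes among these 14 genes on the log2(FPKM + 1) scale (-1.29, -1.10 and -0.88; in limma-voom, without the pseudocount, Psmb9 at -1.32 was below Tap1 and B2m), and Wars1, a tryptophan-tRNA ligase, was the one called higher (0.36). Under that filter on FPKM, and named after their values were seen, Apol9a had 79, 57 and 92 fragments in Control and 1, 1 and 0 with MMK-1, and the MHC class II gene H2-Ab1 had 31, 14 and 14 against 44, 61 and 61 and was higher (limma-voom log2 fold change 1.61, adjusted p = 0.0018). Of the type I and type III interferon targets 10 of 12 tested were lower and 1 was higher by that rule, beside the same shares of all genes, with a median of -1.17, and 9 of the 12 passed a 2-fold decrease (all genes 3.65%). Some of them, such as Ifit3 and Isg15, met the filter on FPKM through Control alone; in limma-trend over every gene above 0, which held all 23 genes of the list with a value, 17 of 23 passed a 2-fold decrease (all genes 3.96%). Oasl2 fell from 8.59 ± 0.223 to 0.595 ± 0.101 FPKM (log2 fold change -2.59), Isg15 from 4.11 ± 0.958 to 0.147 ± 0.0397 FPKM (-2.14) and Ifit3 from 3.44 ± 0.279 to 0.0548 ± 0.0205 FPKM (-2.07), and Oasl1 was the gene that was higher (0.19; adjusted p = 0.0039), a call that upper-quartile scaling did not make. The log2 fold change of Irgm1, -0.66 on the same scale, lay between the medians of these lists.

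**Figure D4:**
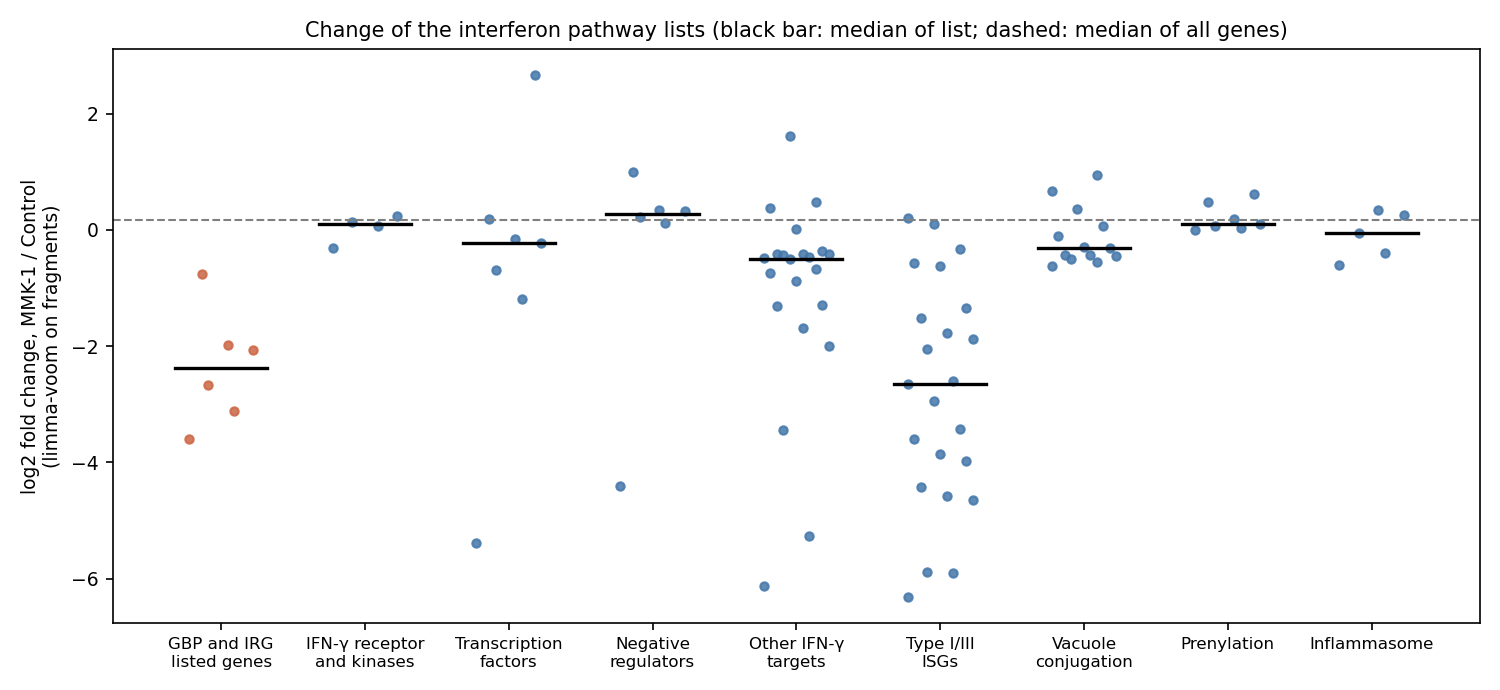
Log2 fold change from limma-voom (y axis) of each gene with at least 10 fragments in the GTPase list (orange) and 8 lists of the interferon pathway and of GTPase function (blue); black bars are list medians and the dashed line is the median of all genes, 0.17. Type I and type III interferon targets lie lowest, with a median of -2.65 over 23 genes, while the medians of the receptor, negative regulator and prenylation lists lie near the dashed line, with Usp18 at -4.41 as the lowest negative regulator; fitted values of genes with 0 fragments in a group depend on the offset that limma-voom adds.

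Changes in the machinery that places IRGs and GBPs on membranes went in both directions. Of 13 genes of the autophagy conjugation system and of vacuole ubiquitination, through which IRGs and GBPs are targeted, 8 were lower and 3 were higher (median -0.29; all genes 24.7% lower and 48.5% higher), with Atg7, Gabarapl1 and Sqstm1 lowest (log2 fold changes -0.52, -0.50 and -0.49) and Map1lc3a, Traf6 and Atg16l1 highest (0.85, 0.58 and 0.32). Of 7 prenylation genes, whose enzymes attach the lipid anchor of some GBPs, 0 were lower in limma-trend (0 at an unadjusted p of at most 0.05, and 0 in limma-voom), and 2 of 7, Pggt1b and Icmt, were higher (0.49 and 0.44), a share below that of all genes. Of 4 tested inflammasome genes, Casp1 and Casp4 were lower (-0.59 and -0.36), and Gsdmd and Pycard were higher (0.30 and 0.24), shares that 24.7% and 48.5% of all genes stand beside; the call of Pycard was lost with upper-quartile scaling (adjusted p = 0.0684). The medians of the prenylation and inflammasome lists were 0.09 and -0.06 on the log2 scale, and -0.02 and -0.16 after upper-quartile scaling.

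The cell type markers moved strongly in the same libraries. The epithelial marker Epcam was at 391.7 ± 1.79 FPKM in Control and 390.8 ± 20.9 FPKM with MMK-1 (limma-trend adjusted p = 0.934; after upper-quartile scaling its log2 fold change was -0.12, adjusted p = 0.0262); it was among the 10 epithelial markers with a value, all tested, of which 4 were lower and 4 higher (all genes 24.7% and 48.5%, also for the next lists), or 6 and 3 after that scaling. Of 15 enterocyte markers 14 were lower (median log2 fold change -0.96), with sums from 10147 to 10253 FPKM in Control and from 5624 to 6026 FPKM with MMK-1. All 8 stem cell markers were higher (median 1.69), with sums from 85.7 to 87.7 FPKM and from 415.6 to 442.5 FPKM. Leukocyte markers, which would bring GBP and IRG transcripts of their own, summed to between 5.66 and 6.68 FPKM in Control and between 1.84 and 3.33 FPKM with MMK-1. Of the 11 leukocyte markers with a value, 6 were under 0.1 FPKM in every library, Itgax was at 0 in all, and the defining leukocyte gene Ptprc had between 0 and 3 fragments. The 2 tested, Cd68 and Itgam, were both lower (adjusted p = 1.5e-04 and 1.1e-05). Stromal markers summed to between 1.23 and 1.37 FPKM in Control and between 0.394 and 0.682 FPKM with MMK-1. The part of these shifts in the decrease of the GTPase genes was not tested.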

How the data were processed

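RNA-seq libraries (paired-end reads of 150 bases) were made from 3 Control and 3 MMK-1 samples. The authors deposited FPKM values per gene, that is fragments divided by gene length and by the library total; the submitters' processing notes name HISAT2, HTSeq, R 3.2.0, DESeq2 and mm10, without their settings. Whether strand was used in counting is not given in the sources used here.

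FPKM values of each gene were whole multiples of 1 fragment's worth, so fragments were recovered: 100% of genes above 0 gave whole fragments, within a tolerance of 1e-05 fragments plus 3e-08 per fragment, and listed genes held 99.7% of each library total. A gene of the transcription factor list is not reported here and was left out of its counts. The members and gene lists were chosen with earlier results of these data known.

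The test was limma 3.58.1 (limma-trend) in R 4.3.3 on log2(FPKM + 1), pseudocount 1, over genes whose FPKM averaged at least 1, on all 6 libraries without covariates. Calls needed a 2-fold change with an unadjusted p up to 0.05, or else an adjusted p (Benjamini-Hochberg, over all genes tested) up to 0.05. A floor of 3 fragments stands for a count of 0. Single genes were compared by exact two-sided permutation tests. The limma-trend fit and the recovery of fragments were tested on simulated data. Alternatives were upper-quartile scaling, a pseudocount of 0.1, every gene above 0, TPM, limma-voom on fragments (at least 10 in all), a replicate block, leaving out each replicate, and a fold change of 1.5. Named were every member with a value, family genes above 0, the receptor, transcription and negative regulator lists, at most 3 genes per direction of other lists, and the 5 profiles nearest to the tested member; Gvin-ps1 and the other cell markers named were chosen after their values were seen. Positions and transcript windows came from GENCODE vM21 and sequences from RefSeq. Python 3.11.15, numpy 2.4.6, pandas 2.3.3, scipy 1.17.1, Biopython 1.88 and matplotlib 3.10.9 were used.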

Additional observations from a re-analysis of the deposited data

How the results depend on the processing

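Of all genes, 385 were lower and 358 higher at a fold change of at least 2; upper-quartile scaling gave 459 and 256. Counts of lower genes were 818 with every gene above 0 and a pseudocount of 0.1, 1146 in limma-voom and 855 at a fold change of 1.5, and from 366 to 399 when single replicates were left out. Higher genes numbered 676 with a pseudocount of 0.1, 1097 with every gene above 0 and that pseudocount, 630 in TPM, 1738 in limma-voom and 1502 at a fold change of 1.5, and from 329 to 426 without single replicates. The number of the 8 GBP and IRG members called lower at a fold change of at least 2 was 0 in the test as designed, 1 with every gene above 0, 2 with a pseudocount of 0.1 as well, 1 in TPM, 5 in limma-voom and 1 at a fold change of 1.5; at an adjusted p of at most 0.05 it was 1, 4, 4, 3 and 5 for the first 5 of these. Leaving out a replicate gave from 0 to 1 and from 1 to 2, the higher values without MMK-1 replicate 1, 2 or 3, where Igtp enters the test because its mean FPKM then reaches 1. No setting called a member higher.

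The log2 fold change of Gbp2 with a pseudocount of 0.1, 0.0032, lay between -0.069 and 0.077 when single replicates were left out and was negative without Control replicate 2, MMK-1 replicate 1 or MMK-1 replicate 3; at most 3 fragments per group stand behind it. The difference of Irgm1 and Irgm2 turned from -0.05 to 1.24 as a plain log2 ratio, which removes the pseudocount. Same-numbered libraries did not visibly deviate together (correlations 0.025, -0.040 and 0.028), which cannot show whether the samples were paired. With the replicate block 385 genes were lower, 359 were higher and Irgm1 stayed at -0.66. Depth limits the GBP genes: their counts are too few to tell a moderate change from none.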

Other observations

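The very large interferon-inducible GTPases, which are related to the GBPs and IRGs, had higher summed fragments with MMK-1, although not every gene passed its test. Gvin1 had 628, 388 and 48 fragments in Control and 2358, 1281 and 931 with MMK-1, and rose with a log2 fold change of 1.49 in limma-trend (SE 0.357, adjusted p = 0.0047), a call that was lost over every gene above 0 with a pseudocount of 0.1 (adjusted p = 0.0528). The 3 libraries of each group spread widely, but all MMK-1 libraries were above all Control libraries. Gvin2 had 20, 16 and 13 fragments in Control and 178, 196 and 50 with MMK-1, without overlap (limma-voom adjusted p = 0.0066). In limma-trend over every gene above 0 its adjusted p was 0.0142, and it was 0.0512 without Control replicate 2, 0.0557 without Control replicate 3 and 0.0508 without MMK-1 replicate 1. Gvin3 had 28, 1 and 2 fragments in Control and 16, 23 and 40 with MMK-1, and its groups overlapped (limma-voom adjusted p = 0.0223; 0.181 in limma-trend over every gene above 0 with a pseudocount of 0.1). The annotated pseudogene Gvin-ps1, added after its values were seen, held far more fragments, 4315, 4315 and 4293 in Control and 18922, 19213 and 15873 with MMK-1, and rose 4.33-fold (counting interval 4.24 to 4.41, limma-trend adjusted p = 1.1e-07).

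Of the windows of 150 bases in Gvin1 transcripts, 95.0% are shared with other genes, mostly Gm4070, and their fragments are uncertain. Which Gvin locus gave the fragments was not tested.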
